A study of Mus musculus with 30 samples.

Results

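Transcripts of 38 genes that hepatocytes are known for were followed in the descending thoracic aorta of 30 male mice. They comprised 35 genes for proteins of blood plasma, from Alb to Mug2, and the intracellular hepatocyte genes Tat, Cps1 and Fabp1. The 38 genes were picked by name out of 26253 listed genes, with the levels of many of them in these libraries already known, so their high and uneven levels describe the choice and are not tested. Control mice were Col3a1+/+ and VEDS mice carried 1 Col3a1 G938D allele (Col3a1 G938D/+), a glycine substitution in type III collagen that models vascular Ehlers-Danlos syndrome. Of the 30 libraries, 6 each came from untreated control, hydralazine-treated control, untreated VEDS and hydralazine-treated VEDS aortas, and 3 each from VEDS aortas of mice given hydralazine with bicalutamide (HB) or with spironolactone (HS). Hydralazine, a vasodilator, was given in the water at 32 mg/kg/day from birth, and bicalutamide, an androgen receptor antagonist, at 50 mg/kg/day or spironolactone, a mineralocorticoid receptor antagonist that also blocks the androgen receptor, at 100 mg/kg/day in chow from day 21. HB and HS mice were 60 days old. The other 4 groups were harvested at 30 or 60 days, and no label gives the age of a single library, so age and treatment cannot be told apart where HB or HS is compared with them. The aortas were perfused with saline before RNA was extracted. The labels say that the adventitia was stripped, while the methods of the study name the removal of perivascular fat. RNA was extracted in batches that each held an aorta of every treatment group, and the batch of a library is not given.

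Hepatocytes secrete most plasma proteins: albumin and other carriers, the apolipoproteins of lipoprotein particles, clotting factors, protease inhibitors and complement. Their genes are switched on together in the liver by factors such as HNF1, HNF4 and C/EBP proteins, and most are close to silent in the vessel wall. Mouse liver also differs between the sexes, since growth hormone pulses and androgens raise some genes in males.

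Each library held between 5517509 and 8293287 counts. The summed level of 5 smooth muscle markers ranged from 15272 to 28908 CPM (library-size-scaled counts, with trimmed mean of M values normalisation), while 5 exocrine pancreas markers stayed between 0 and 0.161 CPM. Cardiomyocyte markers summed to 625.2 CPM in control hydralazine replicate 5 and 578 CPM in VEDS HB replicate 2 against a median of 15.9 CPM. Markers of liver cells other than hepatocytes summed to 4.76 to 45.8 CPM. Lung epithelium markers summed to 0 to 17.2 CPM, oesophagus epithelium markers to 0 to 1.11 CPM and skeletal muscle markers to 1.805 to 21.1 CPM. Red cell markers summed to 130 to 1260 CPM, adipocyte markers to 123 to 615 CPM and brown adipocyte markers to 65.3 to 1198 CPM. How the hepatocyte transcripts came to be in these samples was not tested. In bulk RNA, fewer cells of a type and less RNA per cell cannot be told apart.

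To show what the genes share in sequence, promoters were read from RefSeq (GRCm38.p6, 250 bases before to 50 bases after the annotated start), a build other than the mm39 of the counts, which held 33 promoters of 31 of the 38 genes. GTTAAT, a part of the site bound by HNF1, stood on either strand of 16 of the 33 promoters (48.5%) and of 7.10% of all 32851 promoters. The 16 are not separate cases. They include Serpina1a to Serpina1e, whose promoters are 91.7% to 98.4% identical to each other. Mug1 and Mug2, whose transcripts are 95.3% identical, are also among them. TATAAA stood in 7 (21.2%, against 13.6% of all), the C/EBP-type letters TTGCNNCAA in 1 (3.03%, against 2.08%) and the HNF4-type letters CAAAGTCCA in 0 (0.475% of all). None of these matches is evidence of binding. The promoters of Alb, of Serpina1c and of its neighbour Serpina1e are shown because Alb is the reference below and the levels of the other 2, both alpha-1 antitrypsin genes, separated from each other. Capitals mark GTTAAT, and each runs 5′ to 3′ on the gene's strand.
Alb, chr5:90460620-90460919, plus strand: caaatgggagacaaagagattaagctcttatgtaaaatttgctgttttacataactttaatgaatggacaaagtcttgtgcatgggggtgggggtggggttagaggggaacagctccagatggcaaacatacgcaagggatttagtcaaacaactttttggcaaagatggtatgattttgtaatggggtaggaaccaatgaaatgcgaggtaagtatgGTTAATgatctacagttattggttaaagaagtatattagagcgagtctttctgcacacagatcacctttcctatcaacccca
Serpina1c, chr12:103904901-103905200, minus strand: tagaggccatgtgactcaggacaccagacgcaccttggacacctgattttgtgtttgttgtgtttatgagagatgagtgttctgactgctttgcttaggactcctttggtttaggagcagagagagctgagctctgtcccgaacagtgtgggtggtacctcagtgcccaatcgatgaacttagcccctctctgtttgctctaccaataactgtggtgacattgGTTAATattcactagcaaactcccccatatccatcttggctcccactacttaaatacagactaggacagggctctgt
Serpina1e, chr12:103956848-103957147, minus strand: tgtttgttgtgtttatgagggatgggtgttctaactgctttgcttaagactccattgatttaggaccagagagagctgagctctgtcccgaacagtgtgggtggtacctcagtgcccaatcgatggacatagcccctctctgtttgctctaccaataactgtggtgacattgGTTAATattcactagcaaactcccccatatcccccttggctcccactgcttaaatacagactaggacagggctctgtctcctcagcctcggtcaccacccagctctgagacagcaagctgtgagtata
The match began 32 bases before the start of Alb, 27 before that of Serpina1c and 78 before that of Serpina1e. Serpina1c and Serpina1e were identical at 237 of the 249 bases that align without gaps (95.2%). None of the shown promoters held TATAAA or TTGCNNCAA.

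The level of hepatocyte transcripts differed widely between aortas of the same group. All 38 genes had at least 1 count in all 30 libraries. Together they made up between 0.0880% and 3.41% of a library's counts, with a median of 0.610%. Alb, the main carrier protein of plasma, ran from 47.5 CPM in VEDS untreated replicate 1 to 10859 CPM in VEDS untreated replicate 4, which is 229-fold within a single group. The lowest, median and highest Alb values were 583, 5361 and 7353 CPM in untreated controls. They were 403, 1170 and 8368 CPM in hydralazine-treated controls and 47.5, 1525 and 10859 CPM in untreated VEDS aortas. They were 1213, 3572 and 9108 CPM in hydralazine-treated VEDS aortas. The 3 HB libraries lay at 556, 408.5 and 427 CPM and the 3 HS libraries at 1107, 441 and 112 CPM. Every HB and HS library was below all 6 hydralazine-treated VEDS libraries. The HB libraries were also below all 6 untreated control libraries, whereas the other pairs of groups overlapped.

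Per length, on the TPM scale (transcript share, corrected for length), Alb was the most abundant of the 38 in the median library at 424 TPM, or 18.8% of their summed TPM. Fabp1, a fatty acid binding protein, followed at 180 TPM and the lipoprotein genes Apoa2 and Apoa1 at 163 and 122 TPM. The serine protease inhibitor Serpina3k had a median of 147 TPM. Low levels per length were those of the complement gene C9, with a mean of 4.65 TPM, and of Mug2, with a mean of 5.94 TPM.

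Most of the 38 genes rose and fell together. On the log2 CPM scale, 1 axis carried 94.5% of their variance over the 30 libraries and the next axis 2.77%, without scaling of the genes. The SD of log2 CPM had a median of 1.63 over the genes, and that of the log2 ratio to Alb (0.5 counts added to each) a median of 0.55, beside 0.09 from counting error alone. Over all 13533 genes with a mean of at least 1 CPM other than Alb, the order was the reverse, with a median SD of 0.23 for the level and 1.95 for the ratio to Alb. Of 37 genes set against Alb, 33 were less spread as a ratio than as a level, and a median of 10.9% of the variance of the level was left. No gene came down to counting error, since the SD of the ratio was between 2.26 and 49.1 times that expected from counting. These are descriptions of genes that share libraries, depth and the Alb denominator.

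**Figure D1:**
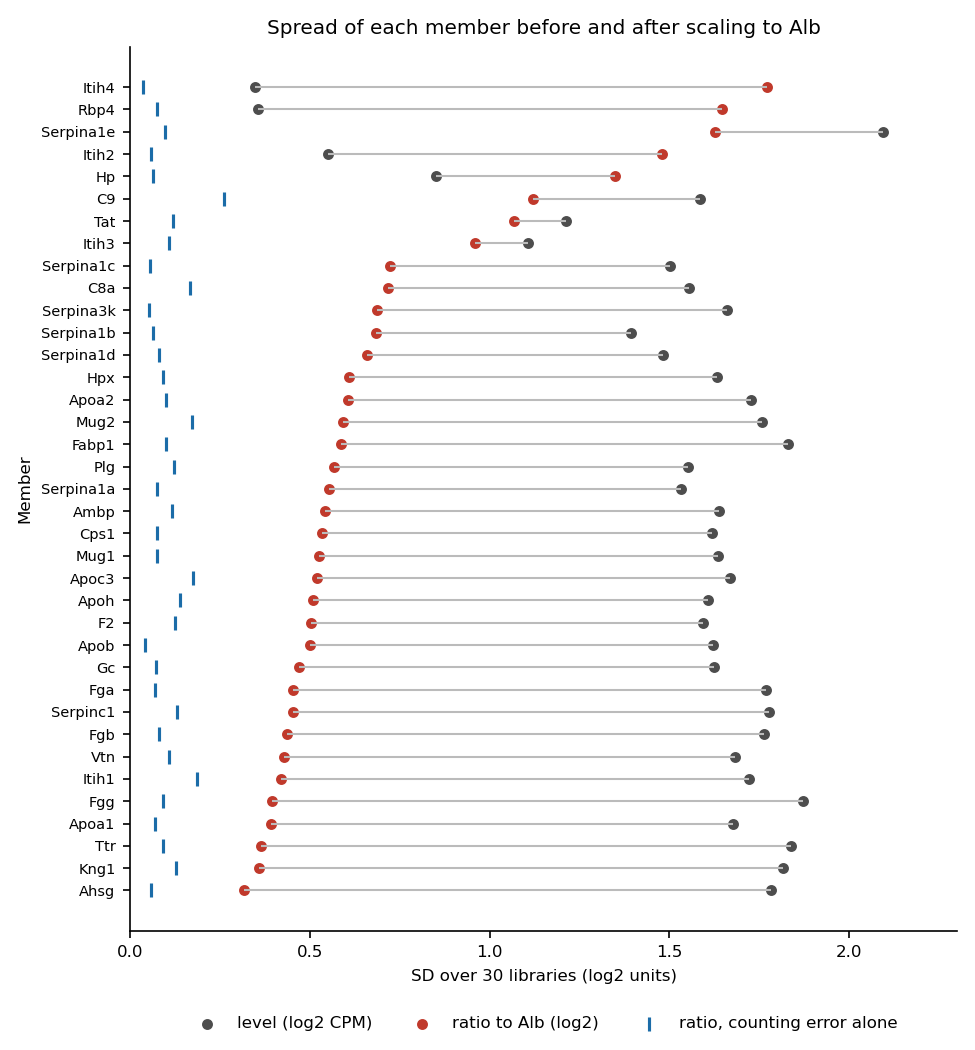
The SD over 30 libraries (log2 units, horizontal axis) of each of 37 members is given for its level (grey), for its ratio to Alb (red) and for that ratio under counting error alone (blue ticks). Itih4, Rbp4, Itih2 and Hp are the 4 with a wider ratio than level, and Ahsg has the smallest SD of the ratio at 0.32.

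The genes nearest to a fixed share of Alb came from several functions. Ahsg, which encodes fetuin-A, a mineral-binding plasma protein, stayed between 10.0 and 28.9 counts per 100 Alb counts (SD of log2 ratio 0.32) while its level ran from 13.5 to 1734 CPM. Its values lay within 12.7 to 16.0 per 100 Alb counts in untreated controls and within 12.2 to 15.8 in hydralazine-treated VEDS aortas, and the 2 highest, 28.5 and 28.9, were those of the 2 libraries with the least Alb. Kng1, the kininogen gene, had an SD of 0.36 and Ttr, which encodes the thyroid hormone carrier transthyretin, also 0.36. Apoa1, the main protein of high-density lipoprotein, had 0.39, the fibrinogen chain gene Fgg 0.40 and the inhibitor subunit gene Itih1 0.42. By this measure Ahsg, Kng1 and Ttr ranked 1, 2 and 3 of 13533 genes, and 25 of the first 100 were members. Fga, Fgb and Fgg, whose products form fibrinogen, had ratios of 6.54 to 29.1, 5.00 to 21.8 and 4.16 to 11.7 per 100 Alb counts.

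Genes outside the 38 followed Alb as closely. Among the nearest with a mean of at least 1 CPM were Apof, Afm, Ces1c, Pzp, Mbl2, Agt, Apoa5, Apom, Fbp1, Cfi, C4bp, Abcb11, Pglyrp2 and Serpinf2, with SDs of the log2 ratio from 0.38 to 0.49. Apof and Apom encode apolipoproteins and Abcb11 the bile salt pump of hepatocytes. In a list of 22 other secreted hepatocyte proteins, all 22 were less spread as a ratio to Alb than as a level, with a median SD of 0.56. In a list of 22 hepatocyte enzymes and transporters, 21 were, with a median of 0.75. Summed, the secreted list ran from 39.0 to 1789 CPM and the enzyme list from 77.4 to 3781 CPM.

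**Figure D2:**
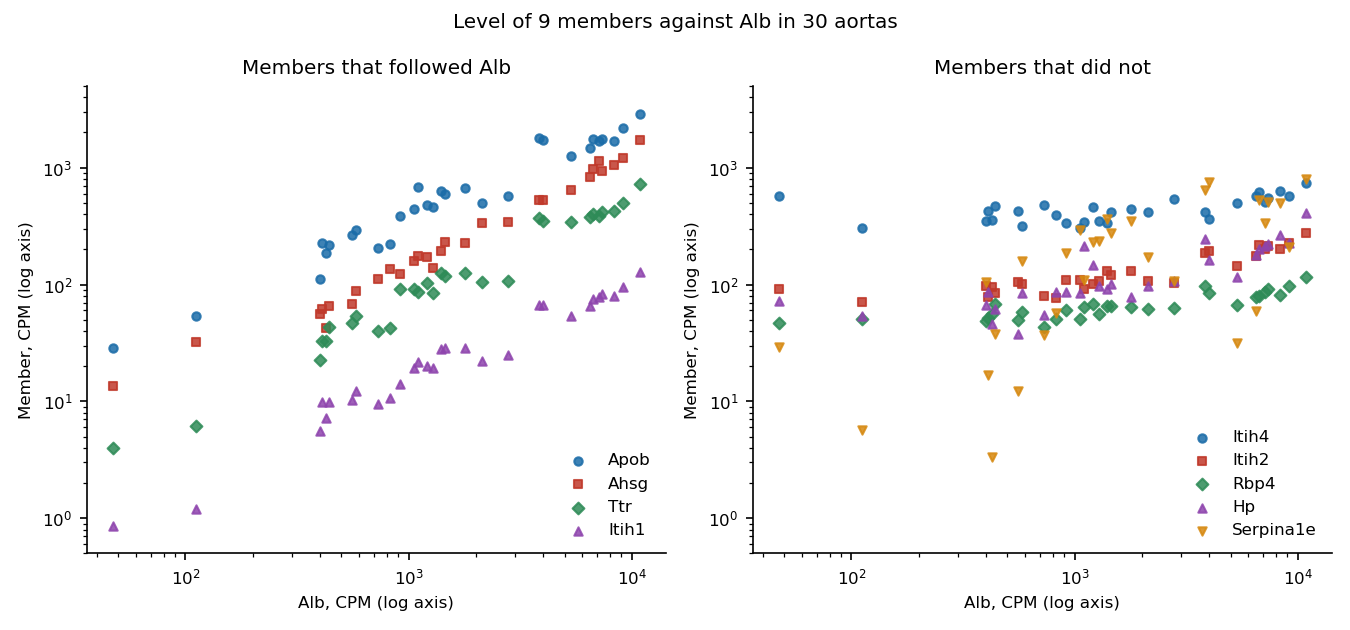
Level of 9 members (CPM, vertical log axis) against Alb (CPM, horizontal log axis), 1 point per library. The 4 genes on the left rise with Alb over its whole range; on the right, Itih4 stays between 303 and 738 CPM at all Alb levels, and Serpina1e scatters.

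The ratio to Alb was not one constant. The slope of log2 CPM on log2 Alb CPM was under 1 for all 37 genes, with a median of 0.81, and lay between 0.7 and 1 for 29. Alb made up between 4.36% and 38.4% of the members' counts. Within a group, libraries fell to either side: Serpina1c gave 27.8, 18.7, 20.6, 9.34, 9.48 and 10.2 counts per 100 Alb counts in untreated control replicates 1 to 6. Replicates 1 to 3 were higher than replicates 4 to 6 in this gene. Untreated VEDS aortas gave 37.6, 22.6, 20.3, 9.17, 11.8 and 10.7, again higher in replicates 1 to 3. Apob, the structural protein of low-density lipoprotein, gave 49.8, 43.1, 45.2, 26.2, 23.8 and 24.1 per 100 Alb counts in the same untreated controls. The fatty acid gene Fabp1 gave 10.8, 8.61, 6.502, 6.56, 5.24 and 3.76 there, with no gap. The ratio of each gene lay within 2-fold of its own median for 16 to 37 of the 37 genes of a library, with a median of 33 genes and the fewest in VEDS untreated replicate 1.

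**Figure D3:**
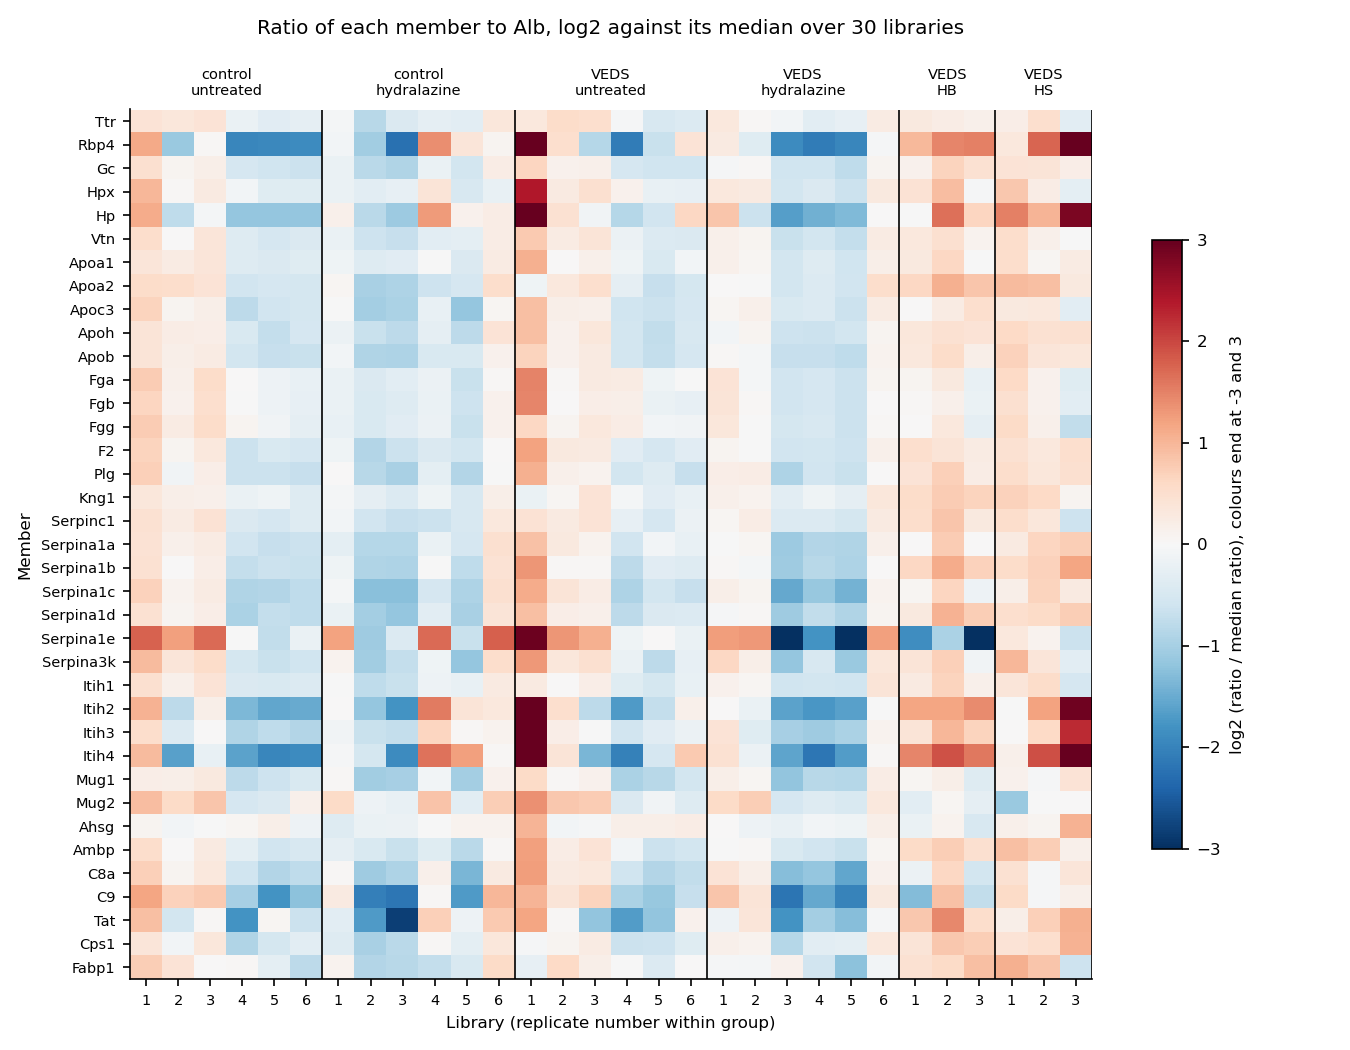
Each cell is the log2 ratio of a member (rows, 37 genes) to Alb in a library (columns, by group and replicate number) relative to that member's median over 30 libraries; red is higher and blue lower. Whole columns are faintly red or blue, and the rows of Rbp4, Hp, Itih2, Itih4 and Serpina1e have the deepest colours.

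In the carriers and inhibitors that did not follow Alb, a level remained where Alb was nearly gone. Itih4, a protease inhibitor family member of the acute phase, stood at 571 CPM in VEDS untreated replicate 1, which is 134% of its own median, while Alb stood at 3.54% of its median. Its lowest, median and highest levels over all libraries were 303, 427 and 738 CPM, so its groups overlapped throughout. Rbp4, the retinol carrier, was at 47.3 CPM there (73.6% of its median) and between 43.3 and 116 CPM overall. Itih2, which encodes a hyaluronan-linked heavy chain, was at 90.7 CPM there (83.7%) and between 70.6 and 276 CPM overall. Hp, the haemoglobin-binding haptoglobin, was at 72.0 CPM there (73.8%) and between 37.4 and 406 CPM overall.

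Itih3, the gene of another heavy chain, and Hpx, the haem-binding hemopexin gene, stood at 36.9% and 14.5% of their medians in the library with the least Alb. The ratio of Hpx had a median of 4.77 counts per 100 Alb counts. It was also high in control untreated replicate 1 (9.56) and VEDS HB replicate 2 (9.08). In VEDS HS replicate 3, with the next-least Alb, Hpx stood at 4.39 CPM and 3.92 counts per 100 Alb counts, below that median. Itih3 stood at 12.2 CPM and 10.9 counts per 100 Alb counts there, above its median of 2.33. Fitted as a straight line on Alb over 30 libraries, the level at an Alb of 0 was 369 CPM for Itih4, 85.1 CPM for Itih2, 64.0 CPM for Hp, 52.8 CPM for Rbp4, 12.5 CPM for Itih3 and 12.2 CPM for Hpx. Each of these 6 still rose with Alb, by 2.73, 1.65, 2.33, 0.49, 1.21 and 4.02 CPM per 100 CPM of Alb.

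A few further genes, for an inhibitor, complement and an enzyme, varied beyond the shared pattern. Serpina1e, 1 of 5 alpha-1 antitrypsin genes of the mouse, ran from 0.59 to 61.5 counts per 100 Alb counts (SD of log2 ratio 1.63), against 3.91 to 15.2 for Serpina1a, 5.13 to 27.3 for Serpina1b, 5.96 to 37.6 for Serpina1c and 3.22 to 14.9 for Serpina1d. C9, a pore-forming complement component, ran from 0.17 to 1.70 per 100 Alb counts (SD 1.12, of which counting error alone would give 0.26), and its partner C8a from 0.56 to 3.94 (SD 0.72). Tat, a tyrosine-degrading liver enzyme, ran from 0.38 to 7.29 (SD 1.07). The Serpina1 genes are near copies: in GENCODE M21, 35.6% of the 50-base windows of the Serpina1e transcript and 73.3% of those of Serpina1c also occur in another Serpina1 gene, so reads could be divided wrongly between them. Mug1 and Mug2 share 20.9% and 21.3% of such windows.

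In hydralazine-treated VEDS replicates 1 to 6, Serpina1e stood at 19.2, 19.6, 0.59, 2.29, 0.91 and 18.8 counts per 100 Alb counts, which leaves a wide gap between replicates 3 to 5 and the others. In untreated VEDS it stood at 61.5, 20.1, 16.7, 7.36, 8.03 and 6.93. In untreated controls it stood at 27.1, 18.9, 25.9, 7.94, 4.78 and 6.95, and in hydralazine-treated controls at 18.3, 3.83, 5.98, 26.0, 5.05 and 27.5. Each of the 4 groups thus held 3 libraries with higher and 3 with lower values. The 3 HB libraries gave 2.20, 4.15 and 0.78 and the 3 HS libraries 9.94, 8.64 and 5.11.

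A list of 11 male-biased liver genes, such as Mup7 and Cyp4a12a, moved in the same libraries, and its part in the Serpina1e values was not tested. Its summed counts per 100 Alb counts were 41.2, 41.0, 2.58, 4.16, 3.01 and 32.1 in hydralazine-treated VEDS replicates 1 to 6, low in the same replicates 3 to 5. They were 48.2, 41.9, 40.7, 7.02, 6.33 and 7.94 in untreated VEDS. They were 54.1, 42.0, 46.1, 6.57, 4.43 and 9.30 in untreated controls and 34.4, 3.43, 3.56, 26.1, 4.05 and 41.1 in hydralazine-treated controls. HB libraries gave 18.7, 22.9 and 15.0 and HS libraries 29.5, 26.5 and 14.3, between the high and low values of the other groups. Several of these genes belong to families of near copies, so only the sum is given.

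**Figure D4:**
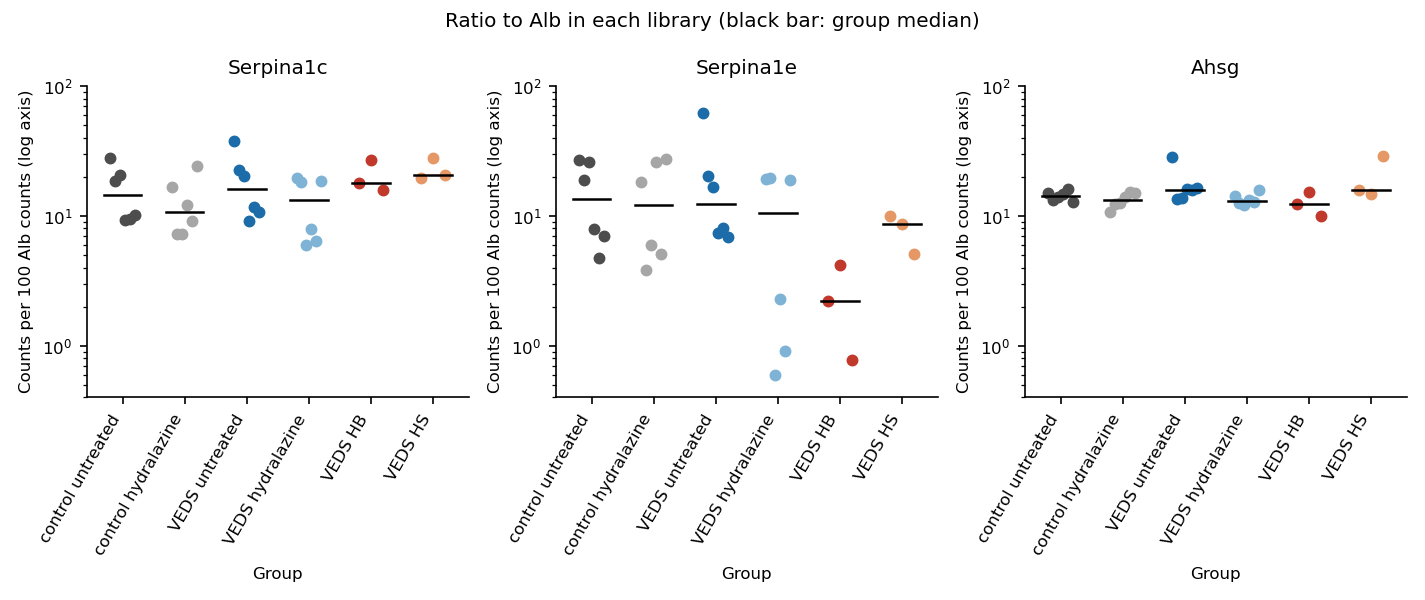
Counts per 100 Alb counts (vertical log axis) of Serpina1c, Serpina1e and Ahsg in each of 30 libraries by group, with the group median as a bar. Serpina1e splits within the 4 groups of 6 and is at 0.78 to 4.15 in HB, while Ahsg stays between 10.0 and 28.9.

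Between genotypes and with hydralazine alone, none of the 38 genes passed the test. The comparisons asked whether the mutation or each treatment changed these transcripts, and whether a change stayed once each library was set against its own Alb. They share groups, so they are not independent of each other. edgeR's quasi-likelihood test with Benjamini-Hochberg adjusted p of 0.05 or less over all genes called 0 members in VEDS against control, untreated, where 0% of all 12976 genes tested passed, and 0 members had an unadjusted p under 0.05 (3.04% of all genes did). The members' median log2 fold change was -0.39 in VEDS aortas, and Alb differed by -0.54 ± 0.92 (SE, n = 6 and 6, edgeR adjusted p = 1.00). In VEDS against control on hydralazine the members' median was 0.84, with 0 called (0% of all genes) and 2 of 38 with an unadjusted p under 0.05 (4.64% of all). Hydralazine against untreated gave medians of 0.17 in VEDS and -1.11 in control aortas, again with 0 called (0% of all genes in both). In VEDS 0 members had an unadjusted p under 0.05 (4.53% of all genes), and in controls 5 had (1230 of 12951 genes tested). Without 1 library the median in VEDS ran from -0.15 (without VEDS hydralazine replicate 4) to 0.91 (without VEDS untreated replicate 4), and was also below 0 without VEDS untreated replicate 1 or 6. That in controls ran from -1.86 (without control hydralazine replicate 3) to -0.91. DESeq2 also called 0 members in each of these 4 comparisons. The difference between the hydralazine effects of the 2 genotypes, tested as an interaction added after the values were seen, was 1.34 ± 1.24 for Alb (SE, edgeR adjusted p = 1.00), and called 0 members (0% of all genes), with 1 of 38 at an unadjusted p under 0.05 (3.28% of all).

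The largest differences were those of HB and HS. In HB against hydralazine-treated VEDS aortas, all 38 genes had lower fitted values, with a median log2 fold change of -2.32 and Alb at -3.21 ± 0.71 (SE, n = 3 and 6, edgeR adjusted p = 0.096). None passed the adjusted threshold in edgeR (0.0151% of all genes did), although 38 of 38 had an unadjusted p under 0.05 (15.5% of all genes did), and the smallest adjusted p of a member was 0.088, that of both C8a and Mug2. DESeq2 called 36 of them, and edgeR called 11 without VEDS hydralazine replicate 4 and 5 without replicate 6. Of the markers of other cells given here, only those of red cells separated these groups. Red cell markers summed to 316, 220 and 130 CPM in HB and to 345 to 741 CPM in hydralazine-treated VEDS, with no overlap. Brown adipocyte markers summed to 114, 351 and 166 CPM against 109 to 723 CPM, with overlap. Cardiomyocyte markers summed to 13.9, 578 and 67.1 CPM in HB against 3.88 to 21.8 CPM, with overlap. Smooth muscle markers summed to 24571 to 27188 CPM against 16215 to 26596 CPM, also with overlap. The part of these cells in the members' difference was not tested. In HS against hydralazine-treated VEDS aortas the median was -1.94, with Alb at -2.94 ± 0.90 (SE, edgeR adjusted p = 0.33), 0 called (0% of all genes) and 33 of 38 with an unadjusted p under 0.05 (13.6% of all genes), while DESeq2 called 3.

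Against untreated VEDS aortas the medians were -2.16 in HB and -1.80 in HS. edgeR called 0 members in both, beside 0.409% and 0.309% of all genes, and 7 and 1 of 38 members had an unadjusted p under 0.05 (16.4% and 11.1% of all genes). DESeq2 called 1 and 0. HS against HB gave a median of 0.34, 0 called by either tool (0% of all genes in edgeR) and 1 of 38 members with an unadjusted p under 0.05 (6.68% of all). This median turned to -0.75 without HS replicate 1 and was 0.85 without HS replicate 3.

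The size of the difference varied between genes and was small in Itih4 and Rbp4, whose level stood apart from Alb. It was larger in Serpina1e, which also did not follow Alb, at 3.33 to 17.0 CPM in HB against 31.6 to 352 CPM in hydralazine-treated VEDS. Itih3 stood at 15.9 to 19.0 CPM against 32.8 to 102 CPM, and Hp at 37.4 to 86.9 CPM against 78.5 to 227 CPM. In HB against hydralazine-treated VEDS, Ahsg differed by -3.28 ± 0.69 on the log2 scale, Fgb by -2.79 ± 0.52, Apob by -2.31 ± 0.48 and Serpina1c by -2.07 ± 0.36 (SE, n = 3 and 6, edgeR adjusted p = 0.094 for each). Itih4 differed by -0.30 ± 0.12 (adjusted p = 0.27) and Rbp4 by -0.49 ± 0.14 (adjusted p = 0.13). Ahsg levels were 68.6, 62.1 and 42.9 CPM in HB against 172, 440.3 and 1209 CPM as the lowest, median and highest in hydralazine-treated VEDS, so the groups did not overlap. Itih4 stood at 428, 426 and 357 CPM in HB and at 415 to 572 CPM in hydralazine-treated VEDS, so they did.

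In fits with log2 Alb CPM as a covariate, most of these differences were smaller. The members' median in HB against hydralazine-treated VEDS moved from -2.32 to -0.22, and in HS from -1.94 to 0.11. Against untreated VEDS the medians were 0.04 in HB and 0.22 in HS, and HS against HB gave 0.00. In the genotype and hydralazine comparisons they were -0.08 (VEDS against control, untreated), 0.26 (the same on hydralazine), -0.11 (hydralazine in VEDS) and -0.48 (hydralazine in controls). Apob, for example, moved from -2.31 ± 0.48 to -0.20 ± 0.15 (SE, edgeR adjusted p = 0.68) in HB against hydralazine-treated VEDS. As a plain ratio, Apob was instead higher, at 43.3 to 56.0 counts per 100 Alb counts in HB and 48.2 to 61.9 in HS. In hydralazine-treated VEDS the ratio was 22.6 to 41.2, without overlap. The Alb values of HB and of HS lay below those of all hydralazine-treated VEDS libraries, so both fits reached outside any range of Alb that the groups share.

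**Figure D5:**
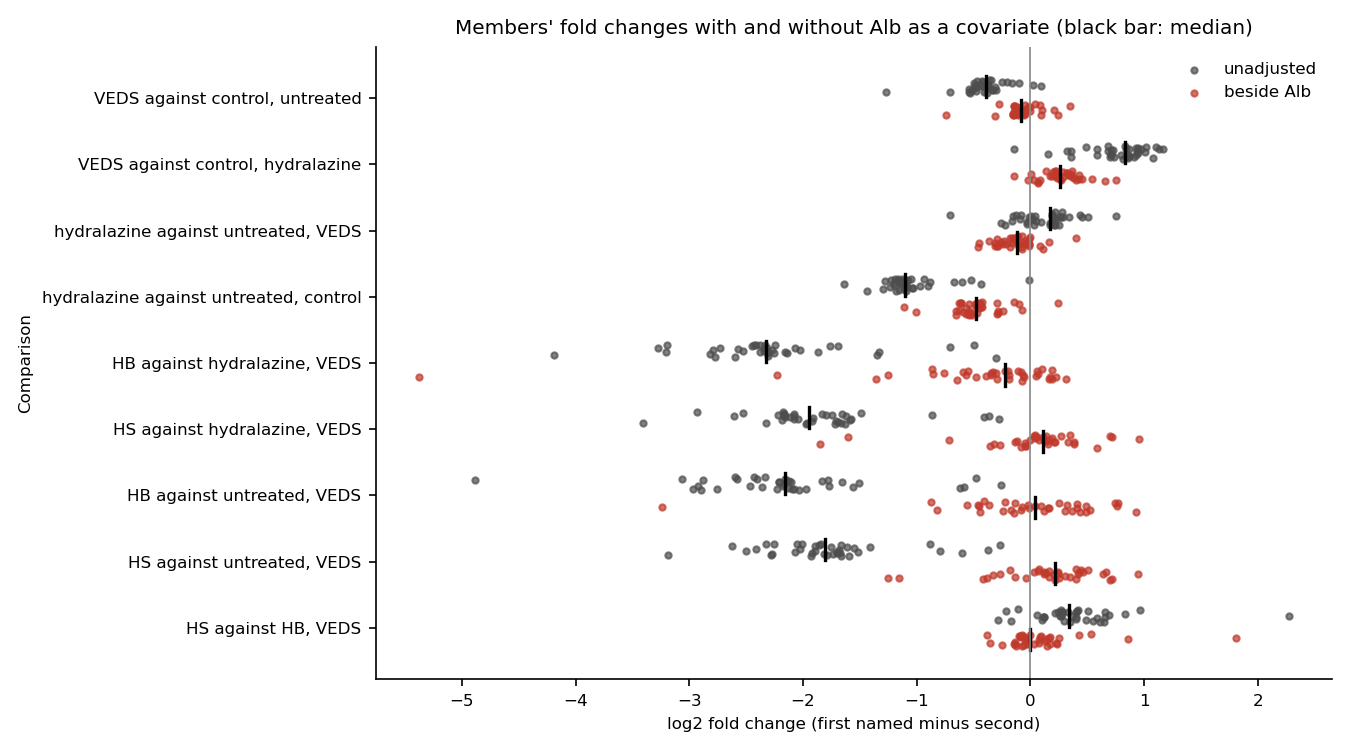
Log2 fold changes (horizontal axis) of 38 members without Alb (grey) and 37 members with log2 Alb CPM as a covariate (red) in 9 comparisons, with medians as black bars. The grey clouds of HB and HS lie left of 0 with medians from -2.32 to -1.80, the red ones near 0, and the red point at -5.38 is Serpina1e.

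Beside Alb, 1 member passed the test, in fits that for hydralazine-treated VEDS reach outside the shared range of Alb. Serpina1e was lower in HB than in hydralazine-treated VEDS by -5.38 ± 0.94 (SE, n = 3 and 6, edgeR adjusted p = 0.041) and lower than in untreated VEDS by -3.25 ± 0.57 (n = 3 and 6, edgeR adjusted p = 0.030). It was the only one of 37 members called in each, beside 0.324% and 1.09% of all genes. As counts per 100 Alb counts, the HB values of 0.78 to 4.15 overlapped those of hydralazine-treated VEDS (0.59 to 19.6), and not those of untreated VEDS (6.93 to 61.5). The medians were 2.20 in HB, 10.5 in hydralazine-treated and 12.3 in untreated VEDS. The HB values interleaved with the 0.59, 2.29 and 0.91 of VEDS hydralazine replicates 3 to 5. With the Alb count as library size the first difference was -2.10 and with all 30 libraries in one fit -3.08. The first call was lost when a library was left out, except for VEDS hydralazine replicates 3 and 4 (edgeR adjusted p from 0.0074 to 0.11 over the 9), and in the fit of all 30 libraries (adjusted p = 0.37). The second was lost without HB replicate 1 or 3 or VEDS untreated replicate 1, 2 or 4 (edgeR adjusted p from 0.010 to 0.16 over the 9). The direction turned in none of these fits. HS was higher than HB by 1.81 ± 0.39 beside Alb (SE, n = 3 and 3, edgeR adjusted p = 0.17), and by 2.45 without HB replicate 2 (edgeR adjusted p = 0.023). Of the male-biased list, 10 of 10 genes tested also had lower values in HB than in hydralazine-treated VEDS in the covariate fit, and 3 of them (Mup7, Mup3 and Hsd3b5) passed. As a plain ratio the sum of the list was 15.0 to 22.9 per 100 Alb counts in HB. That lay below the 32.1 to 41.2 of VEDS hydralazine replicates 1, 2 and 6. It lay above the 2.58 to 4.16 of replicates 3 to 5, so the similar medians of 18.7 and 18.1 hide a split. The list's part in the Serpina1e difference was not tested.

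Mug2, a wide-range protease inhibitor of rodent plasma, came close to the threshold beside Alb. It differed by -1.36 ± 0.26 in HB and by -1.61 ± 0.27 in HS against hydralazine-treated VEDS (SE, edgeR adjusted p = 0.053 and 0.054). Its ratio was 1.13, 1.47 and 1.17 per 100 Alb counts in HB and 0.65, 1.39 and 1.43 in HS against 1.00 to 2.34 in hydralazine-treated VEDS, so the ratios overlapped. Its near copy Mug1 differed by -0.86 ± 0.26 in HB (edgeR adjusted p = 0.21).

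No member passed beside Alb in the other comparisons. In HS against hydralazine-treated VEDS, 0.15% of all genes passed and 2 of 37 members had an unadjusted p under 0.05 (8.40% of all). In HS against untreated VEDS, 0.407% passed and 8 of 37 members were under 0.05 (8.88% of all), and in HS against HB 0.0234% passed and 4 were under 0.05 (9.88% of all). In HB, 10 members were under 0.05 against hydralazine-treated VEDS (11.3% of all) and 8 against untreated VEDS (14.1% of all). Beside Alb, 0% of all genes passed in each of the genotype and hydralazine comparisons, and 1, 11, 0 and 30 of 37 members were under 0.05 in VEDS against control untreated, the same on hydralazine, hydralazine in VEDS and hydralazine in controls (7.34%, 5.65%, 8.83% and 12.4% of all genes). The interaction beside Alb called 0 members (0% of all genes), with 2 under 0.05 (6.57% of all).

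In the hydralazine comparison of controls, 36 of 37 members were thus lower beside Alb with a smallest adjusted p of 0.33 in edgeR, while DESeq2 called 3. Fgb differed by -0.56 ± 0.13 and Apob by -0.51 ± 0.17 there (SE, n = 6 and 6, edgeR adjusted p = 0.33 for both).

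Other hepatocyte genes did not all keep to Alb in the same comparisons. In the fits, the 22 other secreted proteins behaved as the members did. In HB against hydralazine-treated VEDS, 22 of 22 were lower (median -2.30) and 11 of 22 were lower beside Alb (median -0.04), with 0 called in either. Among 22 hepatocyte enzymes and transporters beside Alb, Cyp2c29 rose in HB and both Cyp2c29 and Hpd rose in HS against hydralazine-treated VEDS, and 0 fell in either. Of 6 drug-metabolism genes of the nuclear receptors CAR and PXR, 5 rose in HB and 4 in HS in that comparison, among them Cyp3a11, a drug-oxidising enzyme, by 3.80 ± 0.25 and 3.77 ± 0.22 (SE, edgeR adjusted p = 5.3e-05 and 1.2e-05). Summed, the 6 genes stood at 89.6, 120 and 107 counts per 100 Alb counts in HB and 95.7, 88.2 and 76.0 in HS against 5.75 to 9.17 in hydralazine-treated VEDS. The members, the secreted list and the enzyme list were also higher as plain ratios when summed. Alb made up 15.8% to 19.9% of the members' counts in HB and 11.9% to 19.0% in HS. It made up 21.9% to 38.4% in hydralazine-treated VEDS, without overlap. That sum includes genes such as Itih4, whose level stood apart from Alb. Per 100 Alb counts, Serpina1b gave 16.7 to 23.4 in HB against 5.13 to 11.1, without overlap. Ahsg (10.0 to 15.2 against 12.2 to 15.8) and Serpina1e overlapped. The secreted list summed to 32.5 to 41.996 in HB and 31.5 to 48.7 in HS against 15.6 to 25.4 in hydralazine-treated VEDS, without overlap. The enzyme list summed to 98.8 to 133.8 in HB and 108.7 to 176.8 in HS against 35.95 to 58.7, also without overlap. Both lists overlapped untreated VEDS (16.5 to 82.1 and 34.8 to 163.03), but only through its replicate 1, whose ratios rest on 330 Alb counts. The next highest values there were 26.8 and 71.2, below those of all HB and HS libraries.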

How the data were processed

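Total RNA of the aortas was made into stranded TruSeq libraries and sequenced on an Illumina NovaSeq. The authors ran RSEM with STAR on mouse build mm39 after CASAVA 1.8.4 and deposited 1 table per library with expected counts and TPM values per gene, which are the values used here. Of the expected counts, 97.6% were whole within 1e-06, and the rest were rounded. The deposited TPM values served for levels per length only.

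The members and gene lists were chosen with earlier results of these data known. Groups came from the labels. The labels number no replicates, so numbers follow accession order. Replicates were separate aortas, extracted in batches with aortas of each treatment group, but which library was in which batch is not given, so batch entered no fit. No 2 libraries of a group agreed within sampling noise (lowest chi-square per gene 2.79 over 66 pairs).

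Each of 9 comparisons was fitted on its own libraries with edgeR 4.0.16 (R 4.3.3): TMM, default filterByExpr, glmQLFit and glmQLFTest, without and with log2 Alb CPM as a covariate, with genes called where the Benjamini-Hochberg p was at most 0.05. All 38 members were tested in every comparison. EBSeq, the tool of the study, was not used here. Ratios took 0.5 added counts. DESeq2 1.42.0, other scalings and filters and left-out libraries were alternatives. The scripts were tested on simulated data. Named were Alb, the 6 members with the largest and the 6 with the smallest SD of the ratio to Alb, members called in a comparison, members whose ratio in the library with the least Alb was over 5 times their median, and the 15 nearest genes outside, apart from items not reported here. Serpina1a to Serpina1d, C8a, Tat, Mug1, Mug2, Apob, Fabp1, Fga, Fgb and the genes named for their level in TPM were chosen after their values were seen. Promoters, transcript copies and identities were read with Biopython 1.88. Depth ranged from 5517509 to 8293287 counts, and counting error alone gave ratios an SD of 0.09 (median over members).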

Additional observations from a re-analysis of the deposited data

Results flagged for a closer look

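In the 4 groups of 6 libraries, a library was set apart where its gap to the nearest other library exceeded 0.625 of the group's range. Of 72 combinations of a measure and a group, 17 were. The rule's nominal rate of about 1 in 20 combinations cannot be set beside this count. The ratios share Alb as denominator, and 7 genes met a naming rule through their high ratio in VEDS untreated replicate 1. For Alb these were control hydralazine replicate 3, with 8368 CPM, and VEDS untreated replicate 4, with 10859 CPM. The members summed to 22260 CPM in the former, which again stood apart.

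VEDS untreated replicate 1, the library with the least Alb, stood apart above its group in counts per 100 Alb counts of Ahsg (28.5), Apoa1 (21.5), Hp (152), Itih2 (191), Serpina1e (61.5), Rbp4 (99.7), Itih4 (1202.4), Hpx (25.2) and Itih3 (25.5). The nearest other library of that group was at 16.4, 11.4, 10.4, 11.9, 20.1, 6.56, 48.1, 6.68 and 2.67. These ratios rest on 330 Alb counts.

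Control untreated replicate 1 stood apart in Hp (14.6), Itih4 (54.0) and Hpx (9.56) per 100 Alb counts, and control hydralazine replicate 4 in Hp (16.4) and Hpx (6.19). In both groups that was the library with the least Alb.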

How the results depend on the processing

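No paired analysis was possible because the extraction batch that aortas of different groups shared is not given for any library. Of 786 alternative values of 52 results, 719 were classed as unchanged. Fold changes of single genes had to keep their direction and side of the threshold, and counts of members called had to be equal or close. The members' median fold change had to move by less than the SD between replicates. The median SDs over libraries had to move by less than the SD over members. The unchanged values include turns in sign of the members' median for hydralazine in VEDS (-0.15 to 0.91 without 1 library) and HS against HB (-0.75 to 0.85). DESeq2 in place of edgeR called 36 members in HB and 3 in HS against hydralazine, with Alb at -3.20 (adjusted p = 0.00034) in HB, and 1 in HB against untreated, as did all 30 libraries in one fit; beside Alb it called 3 for hydralazine in controls, 4 and 1 for HB and HS against hydralazine and 5 for HB against untreated. With the Alb count as library size, 2 members passed for hydralazine in VEDS (Itih2 and Itih4, lower), 4 for HB (Itih2, Itih4 and Rbp4 higher, Serpina1e lower) and 4 for HS against hydralazine (Hp, Itih2, Itih4 and Rbp4, higher), and 0 for HB against untreated. Without a low-count filter, 2, 1 and 1 passed beside Alb in HB against hydralazine, HS against hydralazine and HS against HB. With all 30 libraries in one fit, 0 passed beside Alb in HB against hydralazine and 0 against untreated. Leaving out the libraries that stand apart gave 0 in HB against hydralazine and 1 (Serpina1e) in HS against HB. Without 1 library each, the counts ran from 0 to 11 for HB against hydralazine (11 without VEDS hydralazine replicate 4, 5 without replicate 6) and from 0 to 1 for HB against untreated (1 without VEDS untreated replicate 1). Beside Alb they ran from 0 to 2 and from 0 to 3 for these 2 (3 without VEDS untreated replicate 3), from 0 to 1 for HS against hydralazine (1 without HS replicate 2) and from 0 to 1 for HS against HB (1 without HB replicate 2). Alb in HS against HB turned from 0.27 to -0.75 without HS replicate 1, the lowest of its range, with 0.75 the highest. Serpina1e in HB against hydralazine beside Alb ran from -6.73 to -2.10 and against untreated from -3.82 to -2.70 over the alternatives. The single-gene values beside Alb and the interaction were added after seeing the data. The cause of these changes was not tested. The least Alb rested on 330 counts and the least C9 on 5.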
